A study of Mus musculus with 16 samples.

Results

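The genes examined here are 4 families of RNA-binding and splicing proteins, the heterogeneous nuclear ribonucleoproteins (Hnrnp genes), the serine and arginine rich splicing factors (Srsf genes), the subunits of splicing factors 3a and 3b (Sf3a and Sf3b genes) and the numbered RNA-binding motif genes (Rbm genes), as measured in mouse hearts. Members were chosen by symbol: every symbol starting with Hnrnp, Srsf, Sf3a or Sf3b, and every symbol made of Rbm and a number with at most 1 letter after it. Each gene was represented by the probe set with the highest mean over all 16 arrays, and the families were proposed with the results of TAC against sham known, so their counts in that comparison are a description and not independent evidence. This gave 68 genes of the 19938 gene symbols with a probe set of their own: 17 Hnrnp, 32 Rbm, 9 Sf3a or Sf3b and 10 Srsf genes. A further 8 symbols (Hnrnpa1, Hnrnpa1l2-ps2, Hnrnpa3, Hnrnph3, Rbm12, Rbm14, Rbm31y and Rbm4) lay only on probe sets that carry several symbols and were not used. Rbm12b2, Rbm3os and Rbm8a2 have longer suffixes and fell outside the rule.

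The series set hearts of Zbtb17 conditional knockout mice (cKO) against control hearts, each after transverse aortic constriction (TAC), in which the aortic arch is narrowed so that the left ventricle pumps against a raised pressure, or after sham surgery. There were 4 groups of 4 male C57BL/6 mice each, operated on at an age of 8 to 10 weeks and examined 4 weeks later: cKO after TAC, control after TAC, cKO after sham and control after sham. The labels name neither the Cre line and the promoter that drives it, nor the deleted part of Zbtb17, nor the genotype of the controls beyond the word control, nor any batch. RNA of each heart sample was hybridised to 1 Affymetrix Mouse Gene 1.0 ST array, and the deposited values are on a log2 scale. Nothing in the labels says more about how separate the 4 mice of a group were, so the p-values below measure the spread between these hearts.

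Splicing removes introns from a pre-mRNA. The U2 particle, with splicing factors 3a and 3b, settles on the branch point of the intron, SR proteins bound to exonic enhancers favour the use of nearby splice sites, and hnRNP proteins coat the transcript and often oppose them. Several Rbm proteins belong to the same machinery or steer it in muscle: Rbm20 controls the splicing of titin, and its human counterpart is mutated in a form of dilated cardiomyopathy, while Rbm24 is a muscle-enriched splicing factor needed for the sarcomere in the mouse heart. The arrays gave 1 value per gene, so what follows is about the abundance of the factors' own transcripts and not about isoforms or the outcome of splicing.

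The sequences upstream of the 4 genes with the smallest p in TAC against sham are shown because these genes had lower values after TAC in both genotypes. Each line is the run of 250 bases ending just before the most upstream start in the RefSeq promoter table (GRCm38.p6), written 5′ to 3′ on the gene's strand. Capitals mark matches, on either strand, to any of the 7 motifs searched. Rbm5 lies on the minus strand (chr9:107771003-107771252), Hnrnph1 on the plus strand (chr11:50376740-50376989), Hnrnpm on the minus strand (chr17:33685459-33685708) and Hnrnpu on the minus strand (chr1:178337816-178338065).
Rbm5: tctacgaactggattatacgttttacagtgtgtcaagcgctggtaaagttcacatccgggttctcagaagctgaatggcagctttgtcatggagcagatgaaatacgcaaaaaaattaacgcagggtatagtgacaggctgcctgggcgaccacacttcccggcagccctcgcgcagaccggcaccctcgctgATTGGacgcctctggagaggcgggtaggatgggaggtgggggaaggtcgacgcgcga
Hnrnph1: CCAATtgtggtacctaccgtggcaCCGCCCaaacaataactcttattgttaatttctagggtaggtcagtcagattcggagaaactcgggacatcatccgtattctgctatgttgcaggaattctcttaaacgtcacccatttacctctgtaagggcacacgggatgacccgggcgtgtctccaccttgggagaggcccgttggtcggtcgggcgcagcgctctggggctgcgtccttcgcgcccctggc
Hnrnpm: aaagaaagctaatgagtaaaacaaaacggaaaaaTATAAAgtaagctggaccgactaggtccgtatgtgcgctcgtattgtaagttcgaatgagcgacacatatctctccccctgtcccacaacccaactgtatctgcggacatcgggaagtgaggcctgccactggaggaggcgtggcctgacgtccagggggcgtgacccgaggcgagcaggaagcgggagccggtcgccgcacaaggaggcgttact
Hnrnpu: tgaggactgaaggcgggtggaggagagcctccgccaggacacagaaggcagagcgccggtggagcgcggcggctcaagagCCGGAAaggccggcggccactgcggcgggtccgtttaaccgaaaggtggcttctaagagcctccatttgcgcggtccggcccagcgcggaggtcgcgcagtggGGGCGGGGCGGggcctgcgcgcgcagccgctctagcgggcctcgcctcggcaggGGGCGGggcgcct

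In these windows Rbm5 held a CCAAT box (CCAAT), Hnrnph1 a CCAAT box and a GC box (GGGCGG), Hnrnpm a TATA box (TATAAA) well upstream, and Hnrnpu 3 GC boxes, of which a pair overlap, and an ETS core (CCGGAA). Of the 68 genes, 58 had an entry in the promoter table, which holds 27025 genes. The GC box stood in 56.9% of the 58 windows and in 33.0% of all windows, the ETS core in 37.9% and 12.3%, and the CCAAT box in 44.8% and 34.5%. The TATA box stood in 12.1% of the 58 windows and in 13.0% of all. For the E-box (CACGTG) the shares were 6.90% and 6.04%, while no window of the 58 held the cyclic AMP response element (TGACGTCA, 1.60% of all) or the NRF1 motif (GCATGCGC, 2.31% of all). The median GC content was 60.6% over the 58 windows and 52.0% over all windows, and GC-rich motifs move with it. These are matches of letters only.

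Signal was present for nearly the whole set. Of the 68 genes, 64 had a mean above the 40th percentile of all probe sets, a log2 value of 4.37, and were tested: 17 Hnrnp, 29 Rbm, 9 Sf3a or Sf3b and 9 Srsf genes. The 4 below it were Rbm46, Srsf12, Rbm11 and Rbm44. The closest to the filter were Rbm47, just inside with values of 4.42 to 4.90 over the 16 hearts, and Rbm46, just outside with 3.93 to 4.34. In 12 genes other probe sets existed (20 in all), and they are used below only to check the named genes and, by genotype, Rbm25. Values of different probe sets are not on a common scale, so levels are compared only between hearts within a gene.

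The spread over hearts differed between genes. Hnrnpk, which binds C-rich RNA, ran from 10.82 to 11.11 over all 16 hearts, Hnrnpa0 from 5.61 to 6.20 and Srsf11 from 6.90 to 7.34. The widest ranges of log2 values were those of Rbm20 (8.28 to 9.15), Rbm3 (9.83 to 10.70), Rbm24 (9.48 to 10.32), Rbm10 (5.76 to 6.56) and Rbm5 (7.58 to 8.35), all of the Rbm family.

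Some arrays stood apart from the rest of their group. Atf3, an early stress gene, was at 9.58 in cKO sham replicate 1 and at 10.18 and 8.45 in control sham replicates 3 and 4, against 6.13 to 7.26 in the other 13 arrays. Myl7, the atrial myosin light chain, was above 6 in cKO TAC replicates 1 and 2, cKO sham replicate 2, control TAC replicates 1 and 2 and control sham replicate 3, with values up to 8.83. Values without these arrays are given beside the results below that moved by over 1.5 times in a member described with its standard error. Of the 9 pressure overload markers, 7 were higher and 2 lower after TAC (median 0.33). At an unadjusted p under 0.05, 3 were higher (33.3%, all probe sets 7.24%), and none passed at an adjusted one.

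The first comparison asked how the transcripts of these factors stood in pressure-overloaded hearts against sham hearts, averaged over both genotypes. Most had lower values after TAC: 43 of the 64 genes (67.2%, all probe sets 46%) had a negative log2 fold change. A positive one was found in 21 (32.8%, all probe sets 53.9%). The median was -0.066, against 0.010 over all 21333 probe sets tested. No gene passed limma's test at an adjusted p under 0.05, and neither did any of the 21333 probe sets (0%). At an unadjusted p under 0.05, 14 genes (21.9%) were lower, where 4.8% of all probe sets were, and 3 genes (4.69%) were higher, where 7.24% of all probe sets were. All 14 stayed negative when the 3 sham arrays with high Atf3, or the 6 arrays with atrial Myl7 signal, were left out. They had been picked on these same arrays, so a kept sign is not independent evidence. Counted anew over the 64 genes, 11 were lower at that threshold (4.43% of all probe sets) without the sham arrays of high Atf3. Those 11 include Hnrnpdl, Rbm28, Rbm41 and Srsf5, which were not among the 14. Of the 14, Rbm24, Rbm33, Rbm39, Sf3b3, Srsf10, Srsf3 and Srsf6 no longer passed there. Without the arrays of high Myl7 the count was 4 (1.69% of all). The count of 3 higher genes was between 0 and 4 when single arrays were left out, with 0 without control TAC replicate 4 and 1 when any 1 of cKO TAC replicates 2 and 3, cKO sham replicates 1 and 4, control TAC replicates 1 and 2 and control sham replicate 4 was left out.

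**Figure D1:**
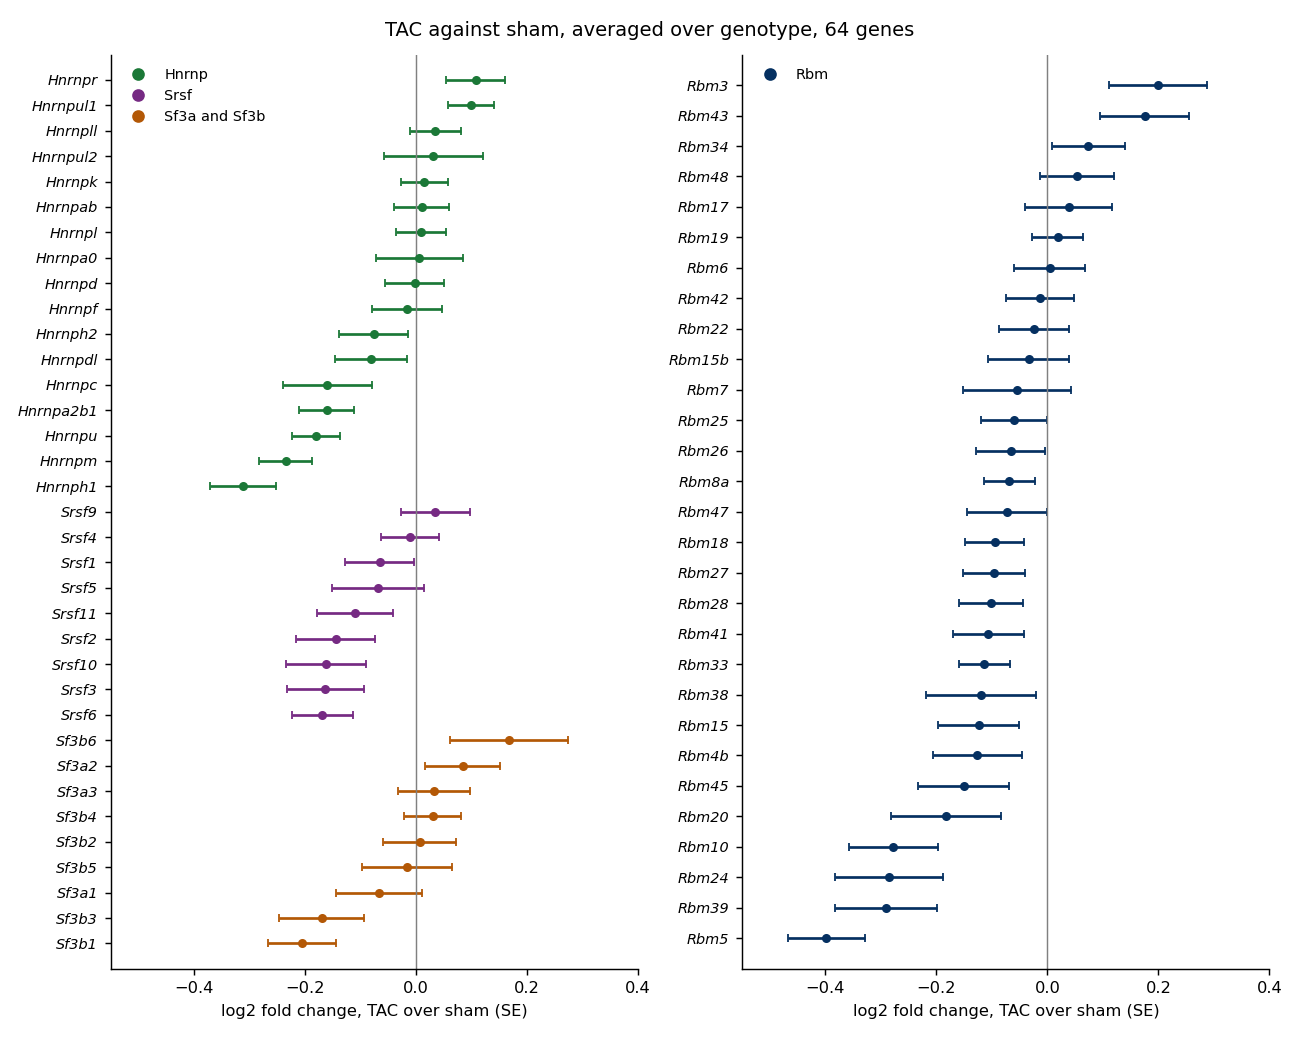
Log2 fold change of TAC over sham, averaged over genotype, for each of the 64 genes (points, with bars of 1 standard error, 8 hearts in each surgery group), in 1 panel for the Hnrnp, Srsf, Sf3a and Sf3b genes and 1 for the Rbm genes. Rbm5 at -0.40 and Hnrnph1 at -0.31 lie farthest to the left, and Rbm3 at 0.20 farthest to the right.

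Markers of other cell types also had different values by surgery. All 7 macrophage markers were higher after TAC (median log2 fold change 0.48, 6 of them at an unadjusted p under 0.05), as were all 7 fibroblast markers (median 0.33, 5 of them) and all 6 endothelial markers (median 0.17, 4 of them), while 5 of 6 cardiomyocyte markers were lower (median -0.060, 2 of them). In that order, these counts were 85.7%, 71.4% and 66.7% higher (all probe sets 7.24%) and 33.3% lower (all probe sets 4.8%). The mean of the macrophage markers ran from 6.91 to 7.74 in cKO TAC hearts, against 6.61 to 6.88 in cKO sham hearts, and from 6.98 to 7.71 in control TAC hearts, against 6.48 to 7.19 in control sham hearts. In this comparison none of the markers in these lists passed the test, none of these 4 lists had a member below the filter on low values, and the part of cell composition in the splicing genes' values was not tested. In whole tissue, fewer cells of a type and less RNA per cell cannot be told apart. The cardiomyocyte markers averaged between 12.85 and 13.19 over the 16 hearts, so markers of the labelled tissue were present.

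By the median of the 64 genes, the lower values were spread over hearts. The families were proposed with this comparison known, so the split of hearts below is a description. No deviation of all probe sets was taken per array, and array medians ran from 4.85 to 4.975. The median deviation of the 64 genes from their own 16-heart means was negative in all 8 TAC hearts, from -0.061 to -0.012 in cKO TAC hearts and from -0.040 to -0.0047 in control TAC hearts. It was positive in 7 of 8 sham hearts, from 0.026 to 0.098 in cKO sham hearts and from -0.024 to 0.062 in control sham hearts. The exception was control sham replicate 2. The gap between the highest TAC heart (-0.0047) and the lowest of the other 7 sham hearts was small: control sham replicate 1 stood only just above 0.

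**Figure D2:**
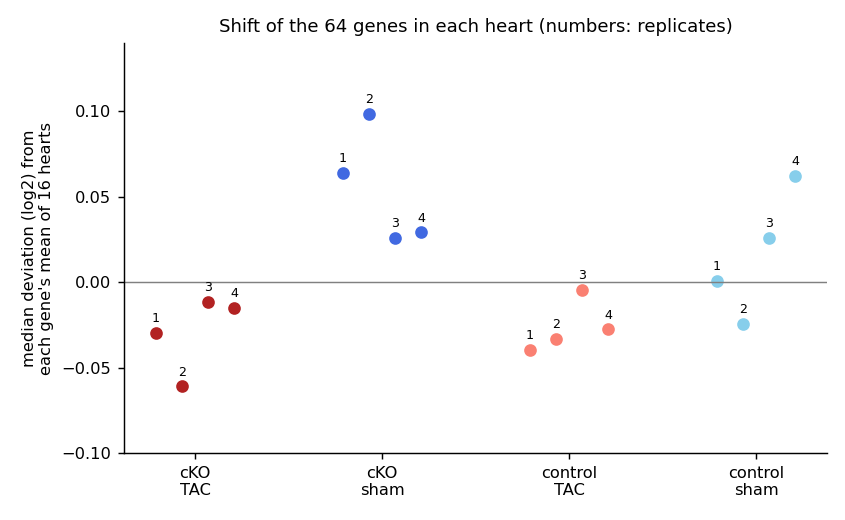
Median over the 64 genes of the deviation of each heart's log2 value from the gene's mean over 16 hearts, by group, with replicate numbers beside the points. All 8 TAC hearts lie below 0 and 7 of 8 sham hearts above it, with control sham replicate 2 at -0.024.

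Among the Hnrnp genes, 9 of 17 had lower values and 8 higher ones (median -0.0025). At an unadjusted p under 0.05, 4 (23.5%) were lower, where 4.8% of all probe sets were. Hnrnph1, whose protein binds G-rich RNA, was at 8.83, 8.63, 8.77 and 9.04 in cKO TAC hearts, against 9.13, 9.19, 9.13 and 9.00 in cKO sham hearts. It was at 9.05, 8.92, 8.87 and 8.84 in control TAC hearts, against 9.27, 9.25, 9.34 and 9.13 in control sham hearts. Only cKO TAC replicate 4 reached into the sham range of its genotype, and the control groups did not overlap. The log2 fold change was -0.31 ± 0.060 (SE), with limma's adjusted p at 0.141, and its p ranked 14 among the 21333 probe sets.

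Hnrnpm, a regulator of alternative exons, separated the surgeries fully. It was at 8.53, 8.57, 8.57 and 8.70 in cKO TAC hearts, against 8.79, 9.03, 8.83 and 8.94 in cKO sham hearts. After TAC, control hearts had 8.77, 8.69, 8.67 and 8.69, against 8.79, 8.94, 8.90 and 8.85 in control sham hearts. Every TAC heart thus lay below every sham heart (8.77 against 8.79 at the closest point), and the log2 fold change was -0.235 ± 0.047 (adjusted p 0.172). Hnrnpm was the only 1 of the 64 genes to separate 8 TAC from 8 sham hearts downward, which 0.0281% of all probe sets did, and no gene did so upward (0.0234% of all).

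Hnrnpu, a chromatin-bound scaffold protein that mouse heart muscle needs for normal splicing, was at 9.91, 9.80, 9.98 and 9.83 in cKO TAC hearts, against 10.10, 10.14, 10.08 and 10.08 in cKO sham hearts. Control TAC hearts had 9.94, 9.81, 9.97 and 9.94, against 9.92, 10.11, 10.07 and 10.12 in control sham hearts. The cKO groups did not overlap, whereas control sham replicate 1 lay among the control TAC hearts. Its log2 fold change was -0.18 ± 0.044 (adjusted p 0.233). Hnrnpa2b1, which binds and sorts mRNAs and reads methylated adenosine, had a lowest, median and highest value of 9.50, 9.725 and 9.81 in TAC hearts, against 9.80, 9.835 and 9.93 in sham hearts. These ranges overlapped only between 9.80 and 9.81, and the log2 fold change was -0.16 ± 0.049 (adjusted p 0.250).

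The rest of the family showed mostly smaller differences. Hnrnpc, Hnrnpdl, Hnrnph2, Hnrnpf and Hnrnpd had log2 fold changes between -0.16 and -0.0025, and Hnrnpa0, Hnrnpl, Hnrnpab, Hnrnpk, Hnrnpul2, Hnrnpll, Hnrnpul1 and Hnrnpr between 0.0062 and 0.11. Hnrnpul1, a relative of Hnrnpu, was the single member with a higher value at an unadjusted p under 0.05 and is named here after its values were seen. It had a lowest, median and highest value of 8.49, 8.600 and 8.68 in TAC hearts, against 8.43, 8.490 and 8.57 in sham hearts, and a log2 fold change of 0.099 ± 0.041 (adjusted p 0.358).

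The Rbm genes leaned the same way, with 22 of 29 lower and 7 higher (median -0.0725). At an unadjusted p under 0.05, 5 (17.2%) were lower, where 4.8% of all probe sets were, and 2 (6.9%) were higher, where 7.24% were. Rbm5, whose human counterpart steers the splicing of transcripts of the apoptosis pathway such as FAS, had the largest difference. Its values were 7.76, 7.58, 7.90 and 7.77 in cKO TAC hearts, against 8.34, 8.20, 8.05 and 7.95 in cKO sham hearts. After TAC, control hearts had 8.06, 7.70, 7.84 and 7.82, against 8.35, 8.19, 8.24 and 8.30 in control sham hearts. Within each genotype the surgeries did not overlap, while control TAC replicate 1 (8.06) lay above the lower cKO sham hearts. The log2 fold change was -0.40 ± 0.069, with a 95% interval of -0.55 to -0.25. Its adjusted p of 0.0999 missed the threshold and was also the smallest of all 21333 probe sets, tied with those ranked beside it (its own p ranked 5). Rbm6, the neighbour of Rbm5 in the genome and a relative of it, had a log2 fold change of 0.0038 ± 0.064, which was 0.025 without the sham arrays with high Atf3 and -0.0058 without the arrays with Myl7.

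Rbm10, a closer relative of Rbm5 that is mutated in human TARP syndrome, was at 6.17, 6.05, 5.76 and 5.83 in cKO TAC hearts, against 6.40, 6.36, 6.22 and 6.21 in cKO sham hearts. Control TAC hearts had 6.48, 6.03, 6.10 and 6.08, against 6.27, 6.56, 6.38 and 6.32 in control sham hearts. Control TAC replicate 1 was the only TAC heart inside a sham range, and the log2 fold change was -0.28 ± 0.080 (adjusted p 0.239). Rbm39, an SR-related protein resembling U2af2 that is degraded by sulfonamide drugs in human cells, had a lowest, median and highest value of 8.41, 8.675 and 8.87 in TAC hearts, against 8.62, 9.025 and 9.15 in sham hearts. The ranges overlapped, and the log2 fold change was -0.29 ± 0.092 (adjusted p 0.260). Leaving out the 3 sham arrays with high Atf3 moved it to -0.18, and leaving out the arrays with Myl7 also gave -0.18.

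**Figure D3:**
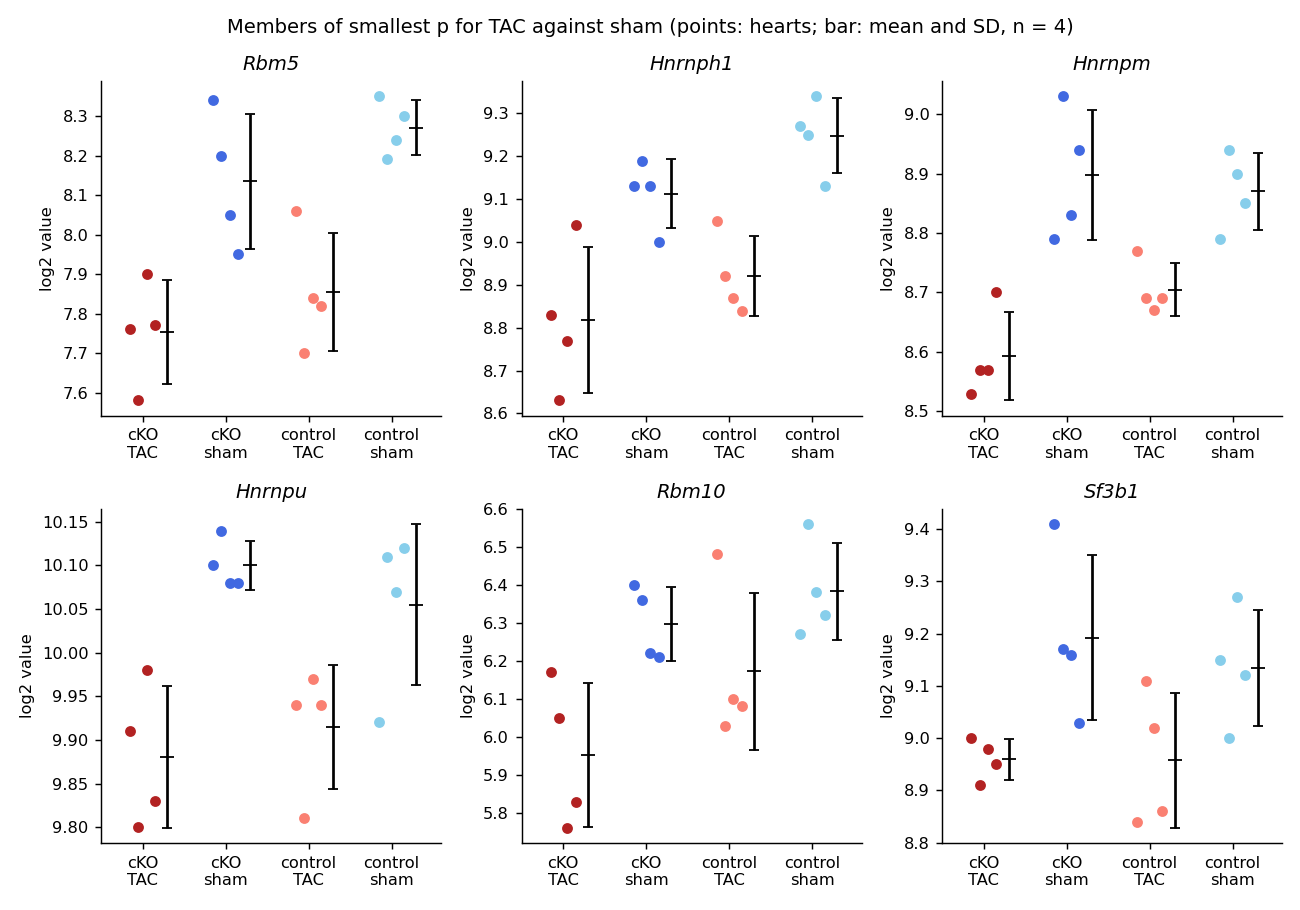
Log2 values of Rbm5, Hnrnph1, Hnrnpm, Hnrnpu, Rbm10 and Sf3b1 in each heart, by group (points), with the mean and SD of 4 hearts beside them. In all 6 genes the TAC mean lies below the sham mean in both genotypes, and Hnrnpm is the only one whose 8 TAC hearts all lie below all 8 sham hearts.

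The muscle-enriched factors were among the more variable genes. Rbm24 was at 9.72, 9.59, 10.06 and 10.03 in cKO TAC hearts, against 10.32, 10.15, 9.98 and 9.91 in cKO sham hearts. After TAC, control hearts had 9.48, 9.92, 9.68 and 9.61, against 9.66, 10.01, 10.16 and 10.18 in control sham hearts. The groups overlapped in both genotypes, the log2 fold change was -0.285 ± 0.098 (adjusted p 0.284), and it was -0.16 without the sham arrays with high Atf3 and -0.165 without the arrays with Myl7.

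Rbm20 was at 8.60, 8.28, 8.92 and 8.89 in cKO TAC hearts, against 8.85, 8.81, 8.83 and 8.78 in cKO sham hearts. Control TAC hearts had 8.37, 8.83, 8.79 and 8.50, against 8.75, 9.15, 8.74 and 8.73 in control sham hearts. The groups overlapped in both genotypes, and the log2 fold change of -0.18 ± 0.0995 (adjusted p 0.480) had a 95% interval of -0.39 to 0.029 and was -0.073 without the arrays with Myl7. Rbm38, a relative of Rbm24 that is also a p53 target, was at 9.93, 9.37, 9.85 and 9.70 in cKO TAC hearts, against 10.02, 9.62, 9.63 and 9.55 in cKO sham hearts. In control hearts it was at 9.28, 9.63, 9.50 and 9.37 after TAC, against 9.39, 9.64, 9.80 and 9.94 after sham. Its groups overlapped throughout, and its log2 fold change of -0.12 ± 0.0995 (adjusted p 0.654) became 0.021 without the sham arrays with high Atf3.

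Rbm3, an RNA-binding protein induced by cold, stood at the other end of the family. It was at 10.19, 10.70, 10.50 and 10.43 in cKO TAC hearts, against 9.83, 10.35, 10.40 and 10.14 in cKO sham hearts. After TAC, control hearts had 10.26, 10.29, 10.09 and 10.19, against 10.24, 9.88, 10.14 and 10.08 in control sham hearts. The groups overlapped, and the log2 fold change of 0.20 ± 0.088 had an adjusted p of 0.386. Both other probe sets of Rbm3 gave nearly the same value (0.21 ± 0.090 and 0.20 ± 0.085). Rbm43, named after its values were seen as the remaining gene higher at an unadjusted p under 0.05, had a log2 fold change of 0.175 ± 0.080 (adjusted p 0.403).

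The other Rbm genes lay between. Rbm33, at -0.11 ± 0.046 (adjusted p 0.348), passed an unadjusted p of 0.05 on the probe set used, but its other probe sets gave -0.0050 and 0.011. Rbm45, Rbm4b, Rbm15, Rbm41, Rbm28, Rbm27, Rbm18, Rbm47, Rbm8a, Rbm26, Rbm25, Rbm7, Rbm15b, Rbm22 and Rbm42 had log2 fold changes between -0.15 and -0.014. Rbm19, Rbm17, Rbm48 and Rbm34 lay between 0.019 and 0.074.

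Of the 9 subunits of splicing factors 3a and 3b, 4 were lower and 5 higher (median 0.0063), so by sign the subunits did not lean one way. At an unadjusted p under 0.05, 2 (22.2%) were lower, where 4.8% of all probe sets were, and none was higher, where 7.24% were. Sf3b1, the large subunit that holds the branch point, was at 9.00, 8.91, 8.98 and 8.95 in cKO TAC hearts, against 9.41, 9.17, 9.16 and 9.03 in cKO sham hearts. Control TAC hearts had 8.84, 9.11, 9.02 and 8.86, against 9.15, 9.00, 9.27 and 9.12 in control sham hearts. The cKO groups did not overlap and the control groups did, and the log2 fold change was -0.205 ± 0.061 (adjusted p 0.245). Sf3b3 had a log2 fold change of -0.17 ± 0.077 (adjusted p 0.395), which was -0.086 without the sham arrays with high Atf3 and -0.057 without the arrays with Myl7. Sf3a1 and Sf3b5 were at -0.066 and -0.016, while Sf3b2, Sf3b4, Sf3a3, Sf3a2 and Sf3b6 lay between 0.0063 and 0.17.

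Among the Srsf genes 8 of 9 were lower and 1, Srsf9, was higher (median -0.11). At an unadjusted p under 0.05, 3 (33.3%) were lower, where 4.8% of all probe sets were. Srsf6, an SR protein that binds exonic enhancers, had a lowest, median and highest value of 8.03, 8.19 and 8.38 in TAC hearts, against 8.25, 8.365 and 8.55 in sham hearts. The ranges overlapped, and the log2 fold change was -0.17 ± 0.055 (adjusted p 0.267). It was -0.098 without the arrays with Myl7 and -0.13 without the sham arrays with high Atf3, and at neither setting was its unadjusted p under 0.05. Srsf3, a shuttling SR protein that also serves mRNA export, had a log2 fold change of -0.16 ± 0.069 (adjusted p 0.369), which was -0.11 without the sham arrays with high Atf3, and its other probe sets gave -0.14 and -0.36.

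Srsf10, whose loss in mice impairs heart development, was at 9.01, 8.94, 9.07 and 8.95 in cKO TAC hearts, against 9.23, 9.21, 8.99 and 9.06 in cKO sham hearts. After TAC, control hearts had 8.92, 9.04, 9.01 and 8.92, against 9.04, 8.88, 9.33 and 9.42 in control sham hearts. The TAC hearts were close together and the sham hearts scattered above and among them. The log2 fold change of -0.16 ± 0.071 (adjusted p 0.385) was -0.041 without the sham arrays with high Atf3, which include the control sham hearts at 9.33 and 9.42. Its other probe set gave -0.0575 ± 0.074.

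Srsf1 and Srsf2, which mouse heart muscle needs after birth and which act in the splicing of calcium-handling transcripts (Srsf1) and in coupling splicing to transcription (Srsf2), had smaller differences. Srsf2 was at 8.85, 8.77, 8.82 and 8.82 in cKO TAC hearts, against 8.89, 9.01, 9.01 and 9.00 in cKO sham hearts, with no overlap. In control hearts it was at 8.92, 9.01, 8.81 and 8.89 after TAC, against 9.23, 8.71, 9.28 and 8.92 after sham, and these groups overlapped. Its log2 fold change over both genotypes was -0.145 ± 0.071 (adjusted p 0.431). Srsf1, whose groups overlapped in both genotypes, had -0.065 ± 0.062 (adjusted p 0.709), which was -0.029 without the sham arrays with high Atf3 and -0.10 without the arrays with Myl7. Srsf11, Srsf5 and Srsf4 were at -0.11, -0.069 and -0.011.

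The next comparisons took each genotype by itself, and since they share no array, their log2 fold changes can be set side by side. Both came from the same model of all arrays, which gave a gene the same standard error in each genotype. Their p-values are therefore not independent. In cKO hearts, 13 of the 64 genes (20.3%) were lower after TAC at an unadjusted p under 0.05, where 2.93% of all probe sets were, and 1 (1.56%), Rbm3, was higher, where 3.85% of all were. In control hearts, 8 genes (12.5%) were lower, where 3.42% of all were, and none was higher, where 4.9% of all were. No gene and no probe set passed at an adjusted p under 0.05 in cKO hearts (0%) or in control hearts (0%). The median of the 64 log2 fold changes was -0.070 in cKO hearts (all probe sets 0.0075) and -0.0275 in control hearts (all probe sets 0.015).

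Leaving out arrays changed these counts. The cKO count of 13 was 8 without cKO sham replicate 1. Without the 6 arrays with Myl7 it was 3, as was the control count of 8. The control count was 5 without control TAC replicate 2, 4 without control sham replicate 3 and 5 without control sham replicate 4, and it was 3 after median centring of the arrays.

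In both genotypes at once, 33 of the 64 genes (51.6%) were lower after TAC, where 26.6% of all probe sets were, and 11 (17.2%) were higher, where 33.7% were. Lower in both at an unadjusted p under 0.05 were 6 genes (9.38%), where 0.394% of all probe sets were. These were Hnrnph1, Hnrnpm, Hnrnpu, Rbm39, Rbm5 and Srsf6. Without the arrays with Myl7, none of them passed in both genotypes. Of the same genes, only Hnrnph1 and Rbm5 passed in both without the sham arrays with high Atf3. Because the p-values of a gene rest on a shared standard error, passing in both genotypes is not independent evidence. Hnrnph1 had log2 fold changes of -0.295 ± 0.084 in cKO hearts and -0.33 ± 0.084 in control hearts. Rbm5 had -0.38 ± 0.098 in cKO hearts and -0.415 ± 0.098 in control hearts. Both genes had nearly equal differences in the 2 genotypes, although Hnrnph1 was at -0.18 in cKO hearts without the arrays with Myl7. Hnrnpm had -0.305 ± 0.067 in cKO hearts (adjusted p 0.595) and -0.165 ± 0.067 in control hearts (adjusted p 0.552), and Hnrnpu had -0.22 ± 0.062 in cKO hearts and -0.14 ± 0.062 in control hearts.

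**Figure D4:**
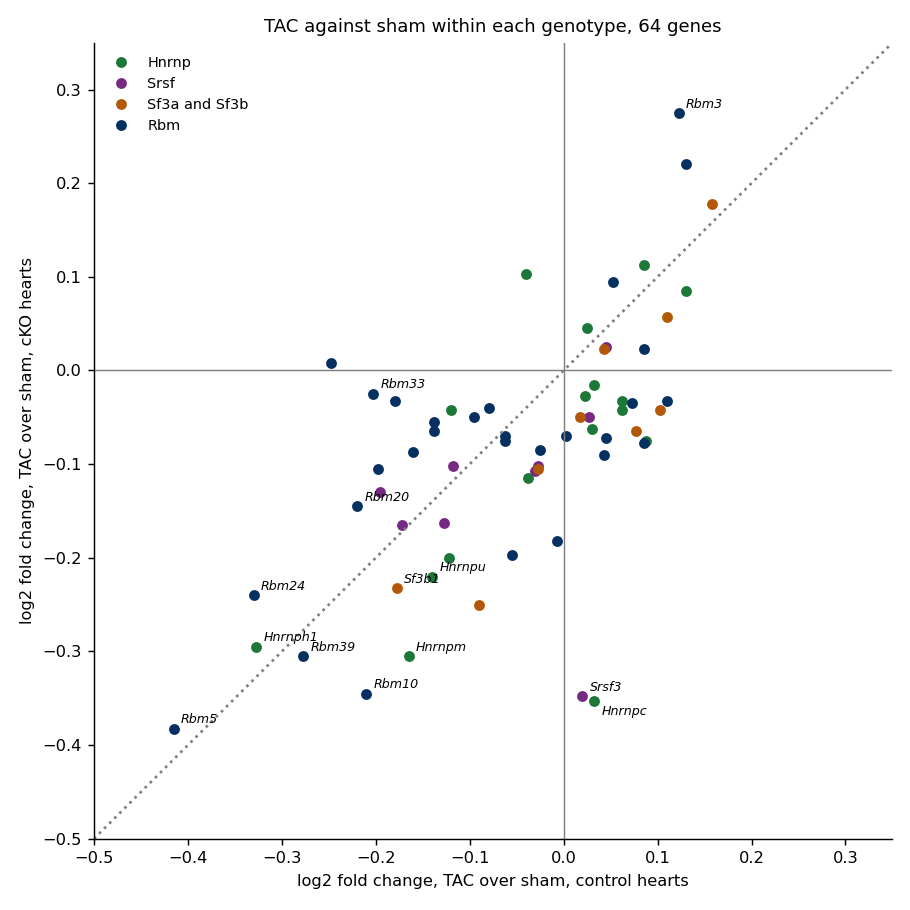
Log2 fold change of TAC over sham in cKO hearts (vertical axis) against that in control hearts (horizontal axis) for the 64 genes, coloured by family, with a dotted line of equal values. Rbm5 and Hnrnph1 lie near the line at the lower left, whereas Srsf3 and Hnrnpc lie near -0.35 in cKO hearts and near 0 in control hearts.

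Whether the difference between TAC and sham itself differed by genotype was tested as an interaction. No gene and no probe set passed at an adjusted p under 0.05 (0%). At an unadjusted p under 0.05, 2 genes were lower (3.12%, all probe sets 2.05%) and none higher (all probe sets 1.65%), a share near that of all probe sets. The count of 2 was 0 without the arrays with Myl7. The pair were Srsf3 and Hnrnpc, each with an adjusted p of 1.

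Srsf3 was at 9.22, 9.26, 9.18 and 9.37 in cKO TAC hearts, against 9.70, 9.60, 9.60 and 9.52 in cKO sham hearts, with no overlap. Control TAC hearts had 9.64, 9.33, 9.52 and 9.46, against 9.64, 9.14, 9.59 and 9.50 in control sham hearts, and these overlapped fully. The interaction was -0.37 ± 0.139 on the log2 scale, with a 95% interval of -0.66 to -0.072. It rests on 1 probe set, as no value of the others is given for the interaction or within either surgery. For cKO against control averaged over surgery, the others gave -0.0725 ± 0.072 and 0.27 ± 0.175, against -0.046 for the probe set used. Hnrnpc, which binds uridine tracts and keeps cryptic exons out, was at 7.46, 7.48, 7.50 and 7.87 in cKO TAC hearts, against 7.83, 7.89, 8.04 and 7.96 in cKO sham hearts. In control hearts it was at 7.55, 7.73, 7.74 and 7.40 after TAC, against 7.67, 7.30, 7.65 and 7.67 after sham. Only cKO TAC replicate 4 reached the cKO sham range, and the interaction was -0.385 ± 0.160. The next smallest p-values were those of Rbm33 (0.18 ± 0.092), Rbm18 (-0.175 ± 0.107), Hnrnpm (-0.14 ± 0.095) and Sf3b4 (-0.145 ± 0.102), whose intervals all included 0, and Hnrnpm was at -0.038 without the arrays with Myl7. The 14 circadian clock genes had large values in the same contrast: 12 had a positive interaction and 2 a negative one (median 0.61), 7 of them positive and 2 negative at an unadjusted p under 0.05, and the part of time of day in these values was not tested.

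The last comparisons set cKO hearts against control hearts. Zbtb17 itself ran from 6.19 to 6.62 over all 16 arrays with no separation of genotypes (log2 fold change 0.11 ± 0.055, cKO over control). Since the deleted part of the gene is not given in the labels and a gene-level value can rest on other exons, Zbtb17 checks no label here. Averaged over surgery, none of the 64 genes passed at an adjusted p under 0.05, where 0.0188% of all probe sets did. At an unadjusted p under 0.05, 2 were higher (3.12%, all probe sets 8.24%) and 2 lower (3.12%, all probe sets 6.68%), so both shares were below those of all probe sets. The median was 0.011 (all probe sets -0.0037), and the count of higher genes was between 1 and 4 without single arrays.

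Cell type markers differed by genotype as well. All 6 endothelial markers were lower in cKO hearts (median log2 fold change -0.20), 4 of them (66.7%, all probe sets 6.68%) at an unadjusted p under 0.05. Their mean ran from 9.04 to 9.41 in cKO TAC hearts, against 9.255 to 9.64 in control TAC hearts, and from 8.96 to 9.19 in cKO sham hearts, against 9.10 to 9.35 in control sham hearts. All 4 atrial markers were higher (median 0.34, none at an unadjusted p under 0.05), with means of 6.73 to 9.85 in cKO hearts after TAC, against 6.81 to 8.55 in control hearts. After sham these means were 7.065 to 9.12 in cKO hearts, against 6.63 to 9.19 in control hearts. Of the 6 cardiomyocyte markers, 5 were higher and 1 lower (median 0.064), and the lower one, the ventricular myosin light chain Myl2, fell in cKO hearts (-0.42 ± 0.039, adjusted p 0.000232). Their part in the genotype values that follow was not tested.

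Rbm8a, the Y14 protein of the exon junction complex, had the smallest p among the probe sets used. It was at 8.27, 8.35, 8.42 and 8.29 in cKO TAC hearts, against 8.58, 8.50, 8.41 and 8.48 in control TAC hearts. After sham surgery it was at 8.42, 8.39, 8.37 and 8.45 in cKO hearts, against 8.42, 8.59, 8.59 and 8.62 in control hearts. A single control heart in each surgery group lay within the cKO range, and the log2 fold change of cKO over control was -0.15 ± 0.046 (adjusted p 0.187). A probe set of Rbm25 that was not used had a smaller p (0.32 ± 0.0695, limma's adjusted p 0.106). The further probe sets of Rbm25 gave 0.0075 and 0.13, against 0.10 for the one used.

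Sf3b2 and Sf3b4, 2 subunits of splicing factor 3b whose proteins bind each other, differed in opposite directions. Sf3b2 was at 7.39, 7.30, 7.41 and 7.40 in cKO TAC hearts, against 7.21, 7.35, 7.32 and 7.10 in control TAC hearts. In sham hearts it was at 7.45, 7.51, 7.41 and 7.39 for cKO, against 6.86, 7.28, 7.21 and 7.32 for control, with no overlap. The log2 fold change was 0.20 ± 0.066 (adjusted p 0.200). Sf3b4 was at 5.46, 5.58, 5.49 and 5.56 in cKO TAC hearts, against 5.67, 5.76, 5.66 and 5.81 in control TAC hearts, with no overlap. In sham hearts its values overlapped, at 5.65, 5.57, 5.49 and 5.55 for cKO, against 5.50, 5.64, 5.76 and 5.59 for control. The log2 fold change was -0.13 ± 0.051 (adjusted p 0.258), and its other probe set gave -0.041 ± 0.090.

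Hnrnpl, which binds CA repeats, had a lowest, median and highest value of 8.66, 8.80 and 8.83 in cKO hearts, against 8.57, 8.69 and 8.78 in control hearts, with a log2 fold change of 0.099 ± 0.045 (adjusted p 0.323). Hnrnpc was at 7.46, 7.85 and 8.04 in cKO hearts, against 7.30, 7.66 and 7.74 in control hearts, and its log2 fold change was 0.165 ± 0.080 (adjusted p 0.348). Hnrnph1 had -0.12 ± 0.060 (adjusted p 0.363). Without the arrays with Myl7, Hnrnpc was at 0.26 and Hnrnph1 at -0.04. All 3 had overlapping genotypes.

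**Figure D5:**
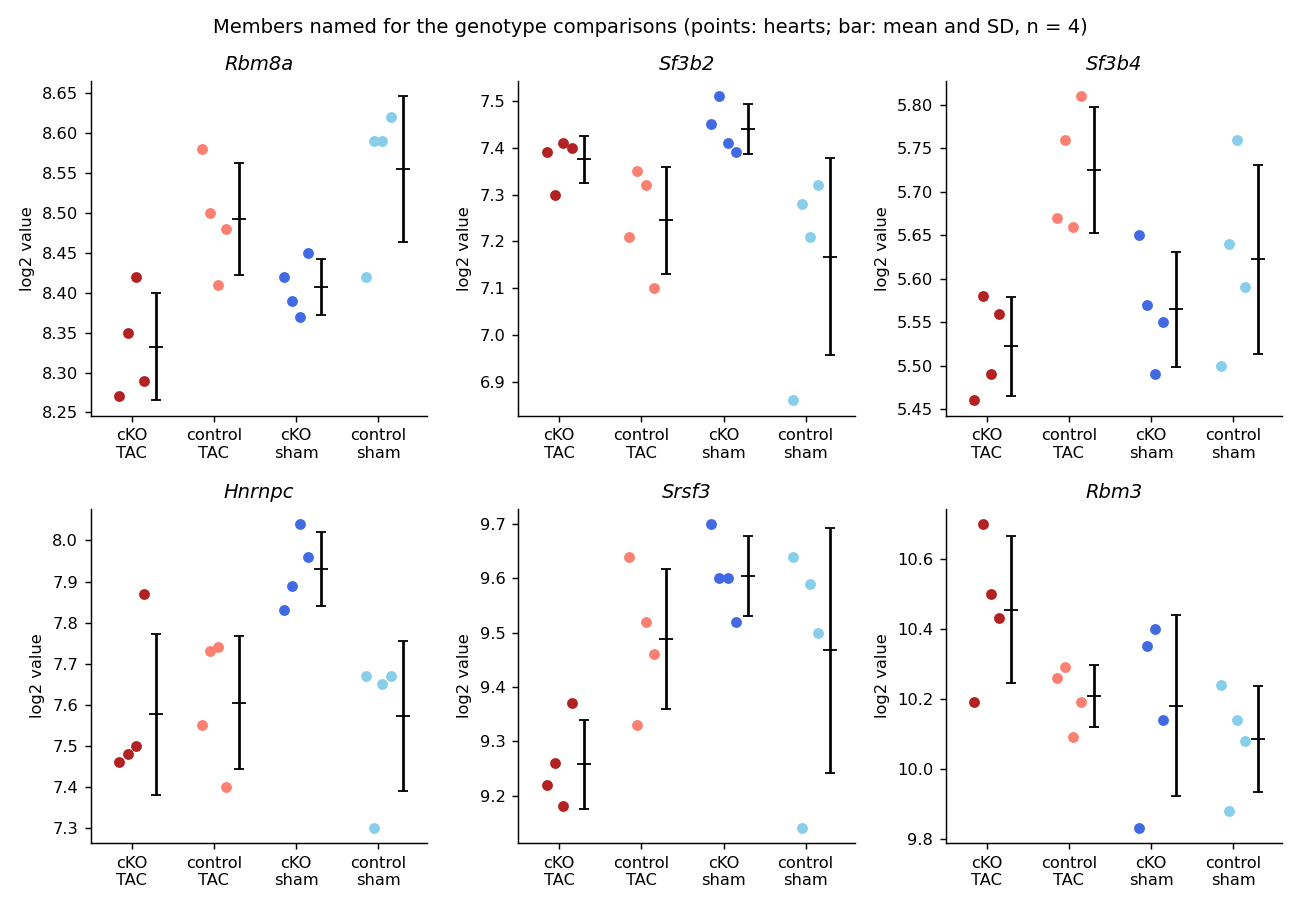
Log2 values of Rbm8a, Sf3b2, Sf3b4, Hnrnpc, Srsf3 and Rbm3 in each heart, by group (points), with the mean and SD of 4 hearts beside them. Rbm8a averages lower in cKO hearts than in control hearts after either surgery, Sf3b4 separates the genotypes after TAC, and Hnrnpc and Sf3b2 separate them after sham.

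Within TAC hearts, none of the 64 genes passed at an adjusted p under 0.05 (all probe sets 0.00469%). At an unadjusted p under 0.05, 3 were lower in cKO hearts (4.69%, all probe sets 3.75%) and none higher (all probe sets 3.83%). These were Sf3b4 (-0.20 ± 0.072, adjusted p 0.569), Rbm8a (-0.16 ± 0.065, adjusted p 0.628) and Srsf3 (-0.23 ± 0.098, adjusted p 0.634). Rbm3 (0.25 ± 0.124), Rbm10 (-0.22 ± 0.114) and Rbm38 (0.27 ± 0.141) followed, with intervals that included 0. The count of lower genes, which was 3, was 1 without control TAC replicate 1, 1 without the arrays with Myl7 and at most 4 without any other single array. Without the arrays with Myl7 the gene counted was Rbm10, while Sf3b4, Rbm8a and Srsf3 no longer passed. Rbm8a was at -0.09 without the arrays with Myl7.

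Within sham hearts, none passed at an adjusted p under 0.05 (all probe sets 0.0234%), 4 were higher in cKO hearts at an unadjusted p under 0.05 (6.25%, all probe sets 5.96%) and 2 lower (3.12%, all probe sets 4.72%). Higher were Hnrnpc (0.36 ± 0.113, adjusted p 0.359), Sf3b2 (0.27 ± 0.093, adjusted p 0.375), Rbm18 (0.17 ± 0.076) and Rbm19, a ribosome assembly factor (0.14 ± 0.065). Rbm8a (-0.15 ± 0.065) and Rbm33 (-0.145 ± 0.065) were lower. Rbm18 was at 8.67, 8.62, 8.48 and 8.46 in cKO sham hearts, against 8.40, 8.41, 8.34 and 8.39 in control sham hearts, with no overlap. Rbm19 was likewise separate, at 5.42, 5.43, 5.48 and 5.40 in cKO sham hearts, against 5.29, 5.29, 5.26 and 5.32 in control sham hearts. These counts shift with the arrays left out. The count of higher genes was 2 without control sham replicate 3, and 8 without the sham arrays with high Atf3. Those 8 include Hnrnpc and Sf3b2 but not Rbm18 or Rbm19, and the rest are genes that had not passed on all arrays. The count of lower genes was between 0 and 2 without single arrays. Without the arrays with Myl7, 1 was higher and none lower. Rbm18 was at 0.115 without the sham arrays with high Atf3.

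The remaining splicing machinery gives the setting for these families. No gene of the lists that follow passed at an adjusted p under 0.05. For TAC against sham, the U snRNP and core spliceosome list leaned little, with 34 of 54 genes lower, 20 higher and a median of -0.0125. At an unadjusted p under 0.05 it held Dhx15, the helicase that takes spent spliceosomes apart (-0.155 ± 0.048), and Snrpd3, a Sm ring protein (-0.12 ± 0.045), lower, and Snrpc, a U1 protein (0.165 ± 0.060), higher. That is 3.7% lower (all probe sets 4.8%) and 1.85% higher (all probe sets 7.24%), so both shares were below those of all probe sets. The minor spliceosome list had 4 of 7 lower and 3 higher, and no gene at an unadjusted p under 0.05. Among the SR protein kinases 6 of 9 were lower, among them Prpf4b (-0.19 ± 0.058) and Clk1 (-0.17 ± 0.103), and Clk3 was higher (0.17 ± 0.068).

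Other splicing regulators outside the 4 families leaned like the members: 36 of 45 were lower and 9 higher, with a median of -0.089. At an unadjusted p under 0.05, 10 were lower (22.2%, all probe sets 4.8%) and none higher (all probe sets 7.24%). Sfpq, a paraspeckle protein and splicing factor, had a log2 fold change of -0.27 ± 0.068 (adjusted p 0.233). Tra2b, an SR-like activator of exon inclusion, had -0.25 ± 0.069 (adjusted p 0.233), and Son, a speckle scaffold, -0.20 ± 0.057 (adjusted p 0.233). Of these 45 genes, 34 were lower after TAC in cKO hearts and 38 in control hearts.

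The exon junction and nonsense-mediated decay list, which includes the member Rbm8a, split 6 higher to 5 lower (median 0.041), with Smg1 at -0.23 ± 0.078, Smg5 at 0.155 ± 0.063 and Smg6 at 0.11 ± 0.066. The cold-inducible and heat shock list, which includes Rbm3, had 2 higher and 7 lower genes (median -0.32). The 2 higher ones were the cold-inducible Rbm3 and Cirbp (0.29 ± 0.098), while the heat shock genes Hsph1 (-0.70 ± 0.256) and Hspa8 (-0.20 ± 0.075) were lower. Cirbp ran from 7.67 to 8.18 in TAC hearts, against 7.22 to 7.85 in sham hearts, so its surgeries overlapped. Hspa1a, a heat shock gene of the list, ran from 5.94 to 6.92 in TAC hearts, against 5.94 to 8.99 in sham hearts, and the part of this wide sham spread in the list's median was not tested.

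Genes known to be spliced by Rbm20 were measured as whole transcripts. After TAC, 8 of 11 were lower, 2 were higher and Myom1 had equal means (median -0.055), with Ttn, the giant sarcomere protein titin, at -0.27 ± 0.092, the calcium channel subunit Cacna1c at -0.29 ± 0.102 and Lmo7 at -0.20 ± 0.075. The calcium release channel Ryr2 was the remaining gene lower at an unadjusted p under 0.05 (-0.26 ± 0.112) and is named after its values were seen. In cKO hearts against control hearts all 11 were higher (median 0.205), 7 of them (63.6%) at an unadjusted p under 0.05, where 8.24% of all probe sets were. The cardiomyocyte, atrial and endothelial markers given above differed in the same comparison, Ryr2 stands in both this list and the cardiomyocyte one, and their part was not tested. Pdlim5, a Z-disc protein, had 0.31 ± 0.076 (adjusted p 0.137), Ttn 0.28 ± 0.092 (adjusted p 0.199) and Ldb3, another Z-disc protein, 0.20 ± 0.068 (adjusted p 0.221). Rbm20 itself differed by 0.0125 between cKO and control hearts.

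For cKO against control hearts, the core spliceosome list had 35 of 54 genes higher and 19 lower (median 0.045), with 5 higher (9.26%, all probe sets 8.24%) and none lower (all probe sets 6.68%) at an unadjusted p under 0.05, so the higher share was near that of all probe sets. The 3 of smallest p were Eftud2 (0.21 ± 0.059, adjusted p 0.175), Snrnp200 (0.21 ± 0.069) and Cdc5l (0.165 ± 0.054), 2 of them being proteins of the U5 particle, Eftud2 and Snrnp200. The other splicing regulators had 26 of 45 higher and 19 lower (median 0.031), led by Nova1 (0.37 ± 0.106), Celf2 (0.17 ± 0.058) and Sfpq (-0.18 ± 0.068).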

How the data were processed

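Per the labels, total RNA from 16 mouse hearts was measured on an Affymetrix array, the Mouse Gene 1.0 ST, with 1 array per heart. The deposited table of 35556 probe sets holds log2 values made by the authors; the submitters' processing notes name MAS5 with no version, and the background correction, probe summary and genome build are not given in the sources used here. Values ran from 2.34 to 14.35 and array medians from 4.85 to 4.975, so they were used without further scaling. The number of arrays limits the precision.

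Probe sets were named from the platform annotation: 21789 carried 1 symbol, 1621 several and 12146 none, and only the first kind was used. A linear model of the 4 group means was fitted to all 16 arrays with limma 3.58.1 (R 4.3.3), with empirical Bayes moderation and a mean-variance trend, over the 21333 probe sets whose mean lay above the 40th percentile. P-values were two-sided and adjusted by Benjamini-Hochberg over these probe sets, with a threshold of 0.05, and 7 comparisons were made. A log2 difference is given with its standard error, and intervals are at 95%. The steps were tested on simulated data.

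Members, gene lists and arrays to leave out were chosen with earlier results of these data known. Genes named in the text were those past the threshold or, failing that, the 10 of smallest p for TAC against sham and 6 for each other comparison, 2 genes with the highest and 1 with the lowest mean per family, the 5 widest ranges, 9 members with known cardiac or core splicing roles, and up to 3 of smallest p per further list. Replicate numbers appear in every group. Correlations of same-numbered deviations ran from -0.20 to 0.19 and 6 of 24 were over 0.1, so the numbers were not taken as pairs. No 2 arrays were duplicates (they differed in at least 97.4% of probe sets). Alternatives tried were quantile normalization, median centring, other filters, no trend, array weights, a replicate block, averaging every probe set of a member, leaving out each array, leaving out arrays with high Atf3 or Myl7, and fitting only the groups compared. Promoter windows came from RefSeq (GRCm38.p6) and motifs were searched on both strands.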

Additional observations from a re-analysis of the deposited data

Results flagged for a closer look

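Among the 30 genes named by rule, 120 groups of 4 hearts were examined for a heart far from the other 3, and 8 groups held one. Chance alone gives such a heart in about 5% of groups.

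Hnrnpc held a distant heart in 2 groups. In cKO TAC hearts replicate 4 was at 7.87, against 7.46 to 7.50 in the other 3 hearts. In control sham hearts replicate 2 was at 7.30, against 7.65 to 7.67.

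Rbm10 was at 6.48 in control TAC replicate 1, against 6.03 to 6.10 in the other 3 hearts of that group, the same array that had the lowest Nppa of all 16 (9.86). Rbm20 was at 9.15 in control sham replicate 2, against 8.73 to 8.75 in the others. Rbm8a was at 8.42 in control sham replicate 1, against 8.59 to 8.62.

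The array with high Atf3 among cKO sham hearts, replicate 1, held the distant value for Rbm38 (10.02, against 9.55 to 9.63 in the others) and for Srsf2 (8.89, against 9.00 to 9.01). Srsf6 was at 8.55 in control sham replicate 3, another array with high Atf3, against 8.36 to 8.39 in the other 3 hearts.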

How the results depend on the processing

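The number of genes past the adjusted threshold was 0 in each of the 7 comparisons and under each alternative run for it. The count of genes lower after TAC at an unadjusted p under 0.05, which was 14, lay between 4 and 19 over 26 alternatives. It lay between 11 and 17 when single arrays were left out, and the genes counted were not always the same. The value of 4 came from leaving out the 6 arrays with high Myl7, which leaves 10 arrays. The median log2 fold change over the 64 genes, -0.066, ran from -0.075 to -0.049 without single arrays and was -0.034 without the sham arrays with high Atf3. The same step turned Rbm38 to 0.021, and the cause was not tested. For cKO against control hearts, the median of 0.011 was -0.0064 after quantile normalization and 0.047 after median centring, and it ran from 0.0060 to 0.028 without single arrays. Rbm5 kept its direction in 26 of 26 alternatives (-0.43 to -0.36), as did Hnrnph1 (-0.35 to -0.27), Hnrnpm (-0.25 to -0.20) and Hnrnpu (-0.20 to -0.14), with adjusted p-values from 0.0771 to 0.981. These genes had the smallest p of the set on the same arrays, so a kept direction is not independent evidence.

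Under the replicate block, 12 genes were lower after TAC and none passed the adjusted threshold in any comparison. Replicate numbers do not mark pairs here, and the block changed no call. Same-numbered arrays correlated best with their own number in 6 of 24 cases. Fitting only the groups compared gives no value for comparisons that average over all 4 groups or for the interaction, and Rbm19 fell below the stricter filter. Quantile normalization and median centring moved the median of all genes by less than 0.1, but median centring moved it by amounts as large as the members' medians: by 0.0288 for TAC against sham in control hearts (members' median -0.0275) and by 0.0587 for cKO against control in sham hearts (members' median 0.031).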
